A study of Mus musculus with 10 samples.

Results

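Oviductal organoids of PgrCre/+ Cdc42 f/f mice (PgrKO) were compared before and after induced differentiation by RNA-seq. The 4 libraries, 2 of PgrKO_Con and 2 of PgrKO_Diff, were taken by their labels from the 10 libraries of the series. The primary epithelial cells came from the oviductal isthmus and were grown in Matrigel, a gel of basement membrane proteins, and passaged. Con organoids were undifferentiated. Diff organoids received 10 nM estradiol-17β (E2) and 1 µM DBZ, which blocks γ-secretase, for 6 days, so the effects of E2 and of DBZ cannot be told apart. The sources used here do not state whether Con organoids were cultured for the same time or given vehicle. Culture time and vehicle may therefore also differ between Con and Diff, and their part was not tested. In PgrKO mice Cre is expressed from the progesterone receptor gene and deletes a loxP-flanked part of Cdc42, so only cells with an active Pgr gene, or descended from such cells, lose it. F/F organoids (2 F/F_Con and 2 F/F_Diff libraries) came from Cdc42 f/f mice without Cre and received the same treatment, so the floxed alleles are shared by both genotypes. The 2 libraries of Cdc42 f/f organoids infected with a Cre adenovirus (AdKO_Con and AdKO_Diff) entered only the shared fit. The age of the mice that gave the organoids was not given in the sources used here. The labels do not say whether libraries of one group came from separate mice or cultures, so the p-values measure the spread between these libraries, which may be technical. Values are FPKM, read fragments scaled by transcript length and library size.

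Estrogen binds the nuclear receptor ERα (Esr1), which then binds DNA and changes transcription of target genes such as Pgr and Greb1. Notch receptors are activated by Jagged and Delta-like ligands on neighbouring cells, and γ-secretase then frees their intracellular domain, which enters the nucleus and with RBPJ switches on genes of the Hes and Hey families. In the oviduct epithelium, active Notch keeps cells secretory, and its release lets progenitors become multiciliated cells through a cascade that includes GEMC1 (Gmnc). CDC42 is a small GTPase that organises actin, cell polarity and junctions.

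The PgrKO libraries held 11769723 to 17330672 reads. Cdc42 was at 104 and 105 FPKM in PgrKO_Con, 113 and 134 FPKM in PgrKO_Diff, and 118 to 133 FPKM over the 4 F/F libraries. These values are of the whole gene, including exons outside the deleted part, and do not show how much of the floxed exon was lost. Libraries with equal numbers went together in PgrKO. The correlation of log2(FPKM + 1) across genes, which are not independent replicates, was 0.97 between PgrKO_Con and PgrKO_Diff library 1 and 0.95 between both libraries 2, against 0.95 between the PgrKO_Con libraries and 0.93 between the PgrKO_Diff libraries. The number 2 libraries held more RNA of most macrophage genes. Of 21 leukocyte and macrophage markers listed, 18 passed the filter. The list summed to 356 and 383 FPKM in the number 1 libraries and to 1282 and 1732 FPKM in the number 2 libraries. In the F/F libraries it summed to 72.9 to 210 FPKM. Much of the smaller sums was Cd14, which did not follow the number. Cd14 was at 179 and 259 FPKM in number 1, 120 and 173 FPKM in number 2 and 52.4 to 172 FPKM in F/F. C1qa was at most at 0.1315 FPKM in F/F. Fibroblast markers summed to 308 and 222 FPKM in PgrKO_Con and 173 and 472 FPKM in PgrKO_Diff, against 72.9 to 102 FPKM in F/F. Much of this was Vim and Fbln1 in PgrKO_Con library 1 (80.9 and 86.8 FPKM) and Vim in F/F_Diff (46.9 and 63.6 FPKM). In PgrKO_Con, Dcn was at 11.2 and 26.55 FPKM and Thy1 at 11.4 and 1.905 FPKM, and in F/F Dcn was at most at 0.4202 FPKM. The sum thus does not rank the libraries by fibroblast RNA alone. The macrophage marker C1qa (3.85 to 108 FPKM) and the fibroblast marker Dcn (11.2 to 97.9 FPKM) were above 1 FPKM in all PgrKO libraries, while Ptprc, Csf1r, Itgam and Fcgr1 were under 1 FPKM in both number 1 libraries and Lum in all but PgrKO_Diff library 2. Epithelial identity genes summed to 2657 to 3295 FPKM. In such bulk RNA, fewer cells of a type and less RNA per cell cannot be told apart.

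No gene passed the limma test between PgrKO_Diff and PgrKO_Con. Of 15816 genes with a group mean of at least 1 FPKM, 0 (0%) had an adjusted p under 0.05 in limma, with a smallest adjusted p of 0.366 shared by 36 genes. The count at an unadjusted p under 0.05 was 1179, of which 600 were higher and 579 lower in PgrKO_Diff. A second test, voom on the whole reads recovered from the FPKM values, gave 0 genes and 1005 at an unadjusted p under 0.05. The same limma fit called 1386 genes higher (8.76%) and 535 lower (3.38%) in F/F_Diff than in F/F_Con beyond 2-fold, but no gene without F/F_Con library 2 or without F/F_Diff library 2, and 1142 without F/F_Con library 1. With 2 libraries against 2, an exact two-sided permutation test of 1 gene cannot go below p = 0.333. The PgrKO results below are therefore values and counts, not calls.

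Both PgrKO_Diff libraries lay above both PgrKO_Con libraries for 2993 genes (18.9%) and below both for 2589 (16.4%). With a difference of at least 2-fold on log2(FPKM + 1) as well, 111 genes (0.702%) were higher and 245 (1.55%) lower. The log2 difference had a median of 0.01 over all genes, and of 0.01 in each library number taken alone. Within both numbers, 39 genes were at least 2-fold higher and 104 at least 2-fold lower after treatment. The library number separated more genes than the treatment did by the same measure: 169 genes were at least 2-fold higher in number 1 than in number 2 in both Con and Diff, and 252 were at least 2-fold lower.

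**Figure D1:**
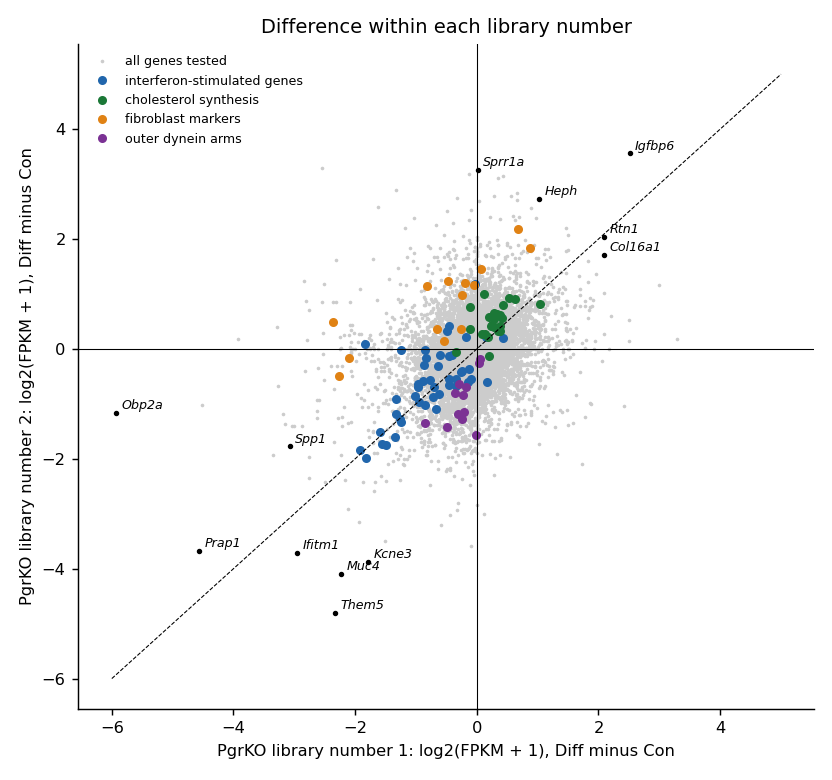
Each point is a gene, with its difference between PgrKO_Diff and PgrKO_Con in library number 1 (horizontal) and number 2 (vertical), both on log2(FPKM + 1), and the dashed line marks equal differences. Interferon-stimulated genes lie mostly below 0 in both numbers and cholesterol synthesis genes mostly above 0 in both, while fibroblast markers spread upward in number 2 with a median of 1.06.

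The largest lower value after treatment was that of Prap1, a secreted proline-rich protein of epithelia. It was at 87.6 and 40.0 FPKM in PgrKO_Con and at 2.73 and 2.20 FPKM in PgrKO_Diff. Its log2 fold change was -4.12 ± 0.81 (SE). Ifitm1, an interferon-induced membrane protein, went from 261 and 218 FPKM to 32.8 and 15.7 FPKM. Muc4, a membrane mucin of the apical surface, went from 32.3 and 54.9 FPKM to 6.07 and 2.27 FPKM. For these genes the groups stood far apart and the spread within each group was small beside the difference. The log2 fold changes were -3.33 ± 0.46 for Ifitm1 and -3.17 ± 0.42 for Muc4, both at an adjusted p of 0.366 in limma. None of the 3 passed the test in F/F either, where the log2 differences were 1.07 for Prap1, -1.50 for Ifitm1 and -0.78 for Muc4.

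Kcne3, a regulatory subunit of potassium channels, was at 29.4 and 60.9 FPKM in PgrKO_Con and at 7.80 and 3.21 FPKM in PgrKO_Diff. Trpv6, an epithelial calcium channel, was at 48.8 and 27.3 FPKM against 6.38 and 4.55 FPKM. Both genes were lower in each library number, by log2 differences of -1.79 and -3.88 for Kcne3 and of -2.75 and -2.35 for Trpv6. Spp1 encodes the secreted glycoprotein osteopontin. It was at 2839 and 630 FPKM before treatment and at 337 and 183 FPKM after it, with no overlap although the control libraries differed widely. The remaining genes of the 15 largest lower values were Them5, Obp2a, Havcr1, Msln, Ntf3, Ly6c1, Serpina1e, Arnt2 and Guca2b, with log2 fold changes from -3.57 (Them5) to -2.26 (Guca2b). Obp2a rested mainly on number 1, where its log2 difference was -5.94, against -1.16 in number 2.

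Among the 15 largest higher values, some were alike in both library numbers and others were highest in PgrKO_Diff library 2. That library had the highest sum of fibroblast markers. Rtn1, a reticulon of the endoplasmic reticulum, was at 20.8 and 16.2 FPKM in PgrKO_Con and at 92.0 and 69.7 FPKM in PgrKO_Diff, which gave 2.07 ± 0.33 (SE) in log2 terms, at an adjusted p of 0.366 in limma. Col16a1, a collagen chain, was at 20.4 and 11.6 FPKM against 90.5 and 40.3 FPKM. Npr2, the receptor for C-type natriuretic peptide, was at 19.8 and 6.43 FPKM against 45.8 and 25.3 FPKM. All 3 were higher in both library numbers, Rtn1 by 2.09 and 2.04, Col16a1 by 2.09 and 1.72, and Npr2 by 1.17 and 1.82 (log2). Slco2a1, a prostaglandin transporter, was at 4.02 and 8.04 FPKM before and 16.8 and 19.9 FPKM after treatment. Igfbp6, which binds insulin-like growth factors, had the largest difference of the 15, from 0.948 and 6.65 FPKM to 10.1 and 89.2 FPKM, again with its highest value in that library. Heph, A2m, Cyp7b1, Spon1 and Loxl2 were also highest in that library, with log2 differences of 2.73, 2.85, 2.39, 2.42 and 2.35 in number 2 and of 1.02, 0.66, 0.98, 0.60 and 0.64 in number 1. The part of fibroblast RNA in these values was not tested. The other genes were Arl5c, Chac1, Sprr1a, Syn2 and Ano5, at log2 fold changes of 1.44 (Ano5) to 1.83 (Arl5c), and Sprr1a differed in number 2 only (3.25, against 0.02 in number 1).

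Of the steroid receptor genes, Esr1 had nearly the same level before and after treatment. It was at 22.9 and 17.0 FPKM in PgrKO_Con and at 25.7 and 19.0 FPKM in PgrKO_Diff, a log2 difference of 0.16 in each library number. Pgrmc1, a membrane-associated progesterone-binding protein, was at 60.5 and 58.1 FPKM against 68.2 and 75.7 FPKM. The Pgrmc1 groups did not overlap, but the log2 difference was small at 0.27 ± 0.16 (SE), with an adjusted p of 0.745 in limma. Pgr, the progesterone receptor and the locus that carries Cre, was at 30.4 and 12 FPKM against 54.2 and 20.6 FPKM. Its groups overlapped because library 1 was higher than library 2 in both, while the log2 difference within each number was close to equal at 0.81 and 0.73. Of 8 steroid receptor genes tested of 9 listed, 3 were higher without overlap, Pgrmc1 and its paralog Pgrmc2 among them, and 0 lower, and 3 of 12 estrogen receptor partners were higher and 0 lower. Of all genes 18.9% were higher and 16.4% lower in this sense, so the partners were near the share of all genes for higher values. Esr2, the gene of ERβ, did not pass the filter on low values and was at most at 0.0628 FPKM in the PgrKO libraries.

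Of 35 estrogen target genes tested of 40 listed, 4 were higher and 8 lower without overlap, not far from the 18.9% and 16.4% of all genes, with a median log2 fold change of 0.06 that turned to -0.27 in number 1 and 0.12 in number 2. Greb1, an early target of ERα and a cofactor of it, was at 14.0 and 5.57 FPKM in PgrKO_Con and at 24.2 and 21.6 FPKM in PgrKO_Diff. The Greb1 values did not overlap, and the log2 difference was 0.75 in number 1 and 1.78 in number 2. Sgk1, a kinase induced by steroid hormones, was at 45.4 and 22 FPKM against 70.1 and 52.9 FPKM, again without overlap. In F/F organoids both genes rose, Greb1 by a log2 fold change of 2.42 (adjusted p = 0.015 in limma) from 2.06 and 1.21 FPKM to 10.9 and 15.3 FPKM, and Sgk1 by 1.58 (adjusted p = 0.032). Before treatment, Greb1 was thus already higher in both PgrKO_Con libraries than in both F/F_Con libraries. The response of Greb1 did not pass the test of a difference between genotypes (-1.15, adjusted p = 0.30), nor did that of Sgk1 (-0.66, adjusted p = 0.50).

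Lower estrogen targets included a cell cycle gene and surface proteins. Ccnd1, cyclin D1, which is also a Notch target, was at 33.8 and 38.7 FPKM in PgrKO_Con and at 16.8 and 17.2 FPKM in PgrKO_Diff. Muc1, a membrane mucin, was at 237 and 260 FPKM against 169 and 129 FPKM. Celsr2, an atypical cadherin of planar cell polarity, was at 7.95 and 9.61 FPKM against 3.75 and 2.27 FPKM. In all 3 both Diff libraries lay below both Con libraries, with log2 fold changes of -1.05 ± 0.25 (Ccnd1), -0.75 ± 0.20 (Muc1) and -1.31 ± 0.31 (Celsr2, standard errors). The same genes fell in F/F organoids, by -1.27, -0.99 and -1.55 (adjusted p = 0.021, 0.022 and 0.023 in limma). Igfbp4, which binds insulin-like growth factors, stayed at 128 and 96.5 FPKM against 100 and 160 FPKM in PgrKO, with overlap, while in F/F it fell from 83.8 and 102 FPKM to 14.8 and 6.74 FPKM. The responses of Igfbp4 differed by 3.27 on the log2 scale (adjusted p = 0.044 in limma), a call that, like every call below of a difference between the genotypes' responses, was lost when any single F/F or PgrKO library except PgrKO_Con library 1 was left out.

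Enzymes of steroid and prostaglandin metabolism were split. Akr1c14, which reduces ketosteroids, was at 7.03 and 6.59 FPKM in PgrKO_Con and at 14.7 and 22.9 FPKM in PgrKO_Diff. Hpgds, which makes prostaglandin D2, was at 33.6 and 20.4 FPKM against 67.7 and 41.6 FPKM, with a log2 difference of 0.99 in both numbers. Hsd11b1, which makes active glucocorticoid, was at 15.3 and 9.03 FPKM against 3.16 and 4.68 FPKM. None of the 3 overlapped between the groups. The responses of Akr1c14 and Hpgds were smaller than in F/F, where their log2 values rose by 4.76 and 4.42, and the difference passed the test for Hpgds (-3.43, adjusted p = 0.043 in limma) and not for Akr1c14 (adjusted p = 0.061). Hpgd, which breaks down prostaglandins, went the other way in the 2 genotypes: from 7.52 and 11.1 FPKM to 5.26 and 4.62 FPKM in PgrKO, and from 1.03 and 0.900 FPKM to 6.75 and 6.37 FPKM in F/F, a difference in response of -2.72 (adjusted p = 0.043).

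Tiparp was higher with little spread. This ADP-ribosyltransferase is a target of the aryl hydrocarbon receptor and, in mouse uterus, of estrogen. It was at 10.7 and 12.1 FPKM in PgrKO_Con and at 26.4 and 28.7 FPKM in PgrKO_Diff, clear of each other. The fitted log2 difference was 1.21 ± 0.16 (SE), at an adjusted p of 0.366 in limma, and it was 1.23 in number 1 and 1.18 in number 2. In F/F it rose by 1.59 (adjusted p = 0.009), and the responses did not pass the test of a difference (-0.39, adjusted p = 0.353). Cyp1a1, the classic target of the same receptor, was listed at 0 and 0.329 FPKM before and 1.01 and 3.19 FPKM after treatment in PgrKO, and at 0 in all 4 F/F libraries.

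**Figure D2:**
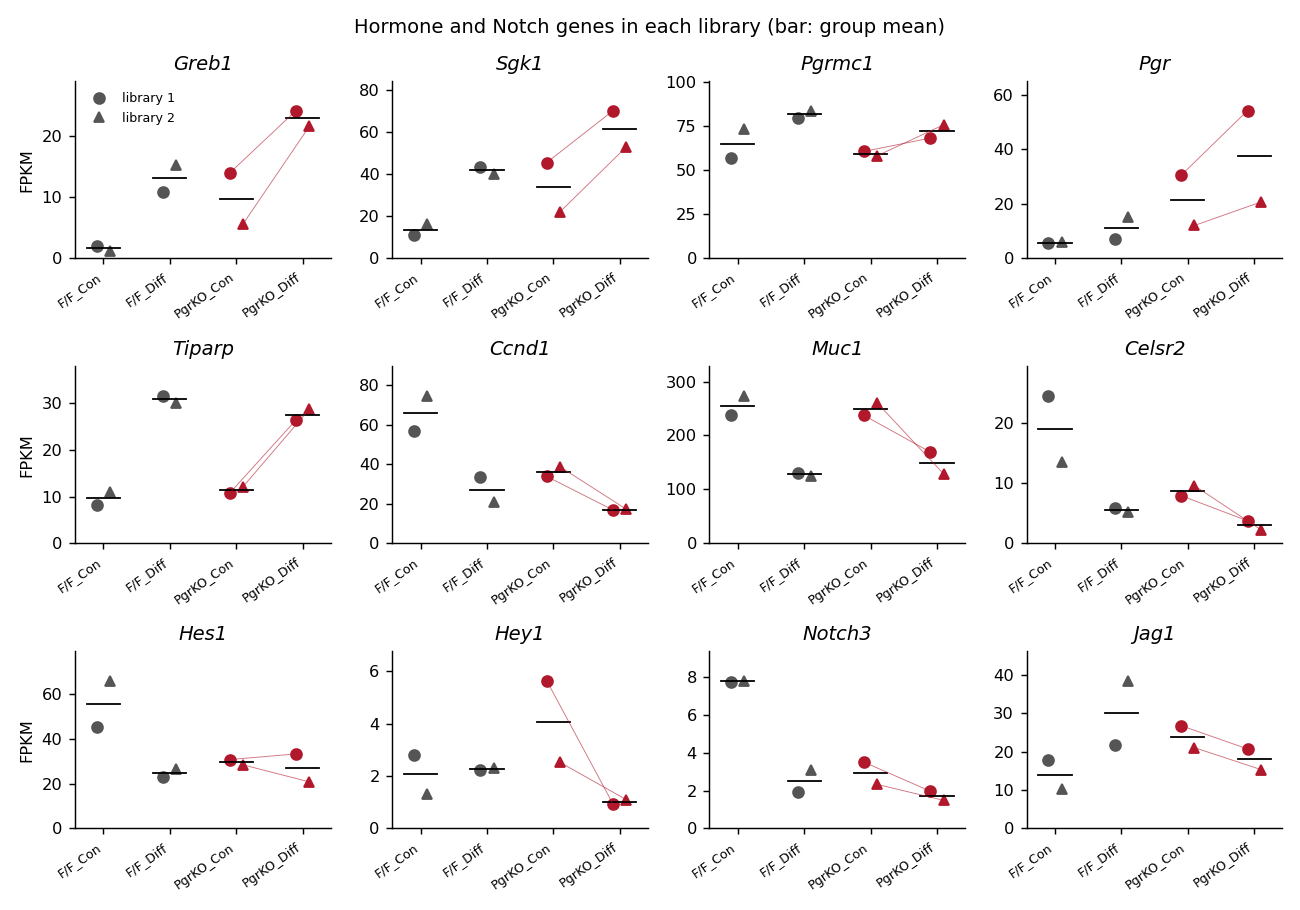
FPKM of hormone and Notch genes in each library of F/F (grey) and PgrKO (red) organoids, with circles for library 1, triangles for library 2, a bar for the group mean and thin lines joining PgrKO libraries of equal number. Greb1, Sgk1, Pgrmc1 and Tiparp lie higher and Ccnd1, Muc1, Celsr2, Hey1, Notch3 and Jag1 lower in PgrKO_Diff without overlap, while Pgr and Hes1 overlap.

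Notch ligands and receptors were mostly lower after treatment with E2 and DBZ. Of 7 listed ligand genes, 3 passed the filter and all 3 were lower without overlap, beside 16.4% of all genes. Jag1 was at 26.8 and 21.1 FPKM in PgrKO_Con and at 20.7 and 15.4 FPKM in PgrKO_Diff. Dll4 was at 5.18 and 3.97 FPKM against 2.30 and 3.19 FPKM, with log2 differences of -0.91 in number 1 and -0.25 in number 2. Jag2 was low throughout, at 1.53 and 1.63 FPKM against 1.26 and 1.26 FPKM. These differences were small, at -0.39 ± 0.36 (Jag1), -0.58 ± 0.32 (Dll4) and -0.19 ± 0.19 (Jag2, standard errors). In F/F, Jag2 rose by 0.87 on the log2 scale (adjusted p = 0.030 in limma), and the responses did not pass the test of a difference (-1.06, adjusted p = 0.086).

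Notch3 was the receptor gene without overlap, at 3.51 and 2.33 FPKM before and 1.97 and 1.49 FPKM after treatment. Notch1 was lower in each library number, by 0.43 and 0.65 on the log2 scale, with overlap between the groups (5.81 and 3.87 FPKM against 4.07 and 2.10 FPKM). Notch2, at 7.71 and 12.1 FPKM against 9.07 and 14.4 FPKM, was slightly higher in both. Notch4, at 2.08 and 1.71 FPKM against 0.117 and 1.85 FPKM, was lower in number 1 only. In F/F, the log2 values of Notch3 fell by 1.33 and of Notch1 by 1.28 (adjusted p = 0.017 and 0.036 in limma), and neither response differed between genotypes by the test (adjusted p = 0.214 and 0.368).

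Of 10 Notch target genes tested of 16 listed, 9 had values below 0 and 1 (Sox9) above 0. Hey1, a transcriptional repressor, was at 5.64 and 2.52 FPKM in PgrKO_Con and at 0.923 and 1.10 FPKM in PgrKO_Diff. The Hey1 groups did not overlap, with a log2 difference of -1.27 ± 0.36 (SE) and an adjusted p of 0.532 in limma. By library number the Hey1 difference was uneven, at -1.79 in number 1 and -0.75 in number 2. Hes1, the best known target, was at 30.8 and 28.4 FPKM against 33.3 and 20.8 FPKM, with overlap and differences of opposite sign in the numbers (0.11 and -0.43). In F/F it fell from 45.5 and 66.0 FPKM to 22.9 and 26.4 FPKM (-1.12, adjusted p = 0.036), and the responses did not pass the test of a difference (0.97, adjusted p = 0.203). Hes1 in both PgrKO_Con libraries was thus already near the F/F_Diff values. Without overlap, 3 of the 10 were lower (Ccnd1, Hey1 and Notch3) and 0 higher, beside 16.4% and 18.9% of all genes, with a median of -0.31. Hes5, a direct target in neural progenitors, was listed at 0 in all libraries.

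Of 22 modifiers and nuclear partners of the pathway tested, 5 were higher and 3 lower without overlap, near the 18.9% and 16.4% of all genes. Numb, which promotes removal of Notch from the membrane, was at 16.8 and 15.5 FPKM before and 25.0 and 23.5 FPKM after treatment, a log2 difference of 0.56 ± 0.11 (SE) at an adjusted p of 0.437 in limma, with 0.55 and 0.57 in the numbers. Rfng, a glycosyltransferase that modifies Notch, was at 19.3 and 17.6 FPKM against 43.4 and 25.6 FPKM. Neurl1b, a ubiquitin ligase for Notch ligands, was lower, at 2.04 and 4.83 FPKM against 0.873 and 1.23 FPKM, and fell in F/F too (-1.87, adjusted p = 0.021). Of 9 γ-secretase and ADAM protease genes tested, 3 were higher without overlap, Adam17 and Psen2 among them, and 0 lower, beside 18.9% and 16.4% of all genes. Adam17, a protease that cuts Notch outside the cell, was at 14.5 and 17.9 FPKM against 18.6 and 21.6 FPKM, a log2 difference of 0.30.

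Genes of multiciliogenesis were not higher after treatment. The 7 regulators that the study names had log2 fold changes below 0 in PgrKO, with a median of -0.36, of -0.13 in number 1 and -0.76 in number 2. Of them, 2 were lower without overlap and 0 higher, whereas in F/F 5 rose (background 12.4% of genes higher and 6.89% lower at an adjusted p under 0.05), with a median of 1.75 over the 7. Gmnc was at 2.30 and 2.71 FPKM in PgrKO_Con and at 2.34 and 1.61 FPKM in PgrKO_Diff, with overlap. Over all cilium lists, 209 genes were tested of 232 listed. In PgrKO, 3 were higher and 90 lower without overlap, beside 18.9% and 16.4% of all genes, and 193 had a value below 0, with a median of -0.46. This median was -0.13 in number 1 and -0.74 in number 2. PgrKO_Con library 2 began with more cilium RNA: the 220 listed genes in the table summed to 1013 and 1869 FPKM in PgrKO_Con and to 939 and 901 FPKM in PgrKO_Diff, so both treated libraries ended alike. In F/F the sum went from 2304 and 1848 FPKM to 7814 and 9336 FPKM, and 169 of the 209 genes rose.

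The structural parts of the cilium had the same signs. All 12 outer dynein arm genes, all 12 inner dynein arm genes and all 34 tektins and microtubule inner proteins tested had values below 0 in PgrKO, with medians of -0.63, -0.49 and -0.68, and 5, 2 and 19 of them lay lower without overlap. Beside the 16.4% of all genes lower without overlap, the inner dynein arm count was at the background share. Enkur, a microtubule inner protein, was at 6.48 and 15.4 FPKM in PgrKO_Con and at 2.86 and 4.59 FPKM in PgrKO_Diff, and in F/F it rose from 17.1 and 14.1 FPKM to 75.0 and 91.2 FPKM. Ift74, of the intraflagellar transport complex, was at 8.57 and 14.2 FPKM against 6.55 and 6.49 FPKM. B9d1, of the transition zone at the base of the cilium, was at 12.4 and 16.7 FPKM against 8.24 and 7.34 FPKM. Nek2, a centrosomal kinase, was at 6.61 and 10.4 FPKM against 4.55 and 4.50 FPKM. The responses of these genes differed from those in F/F, PgrKO minus F/F, by -3.60 (Enkur), -2.30 (Ift74), -1.79 (B9d1) and -3.14 (Nek2) in log2 terms (adjusted p = 0.043, 0.043, 0.044 and 0.043 in limma). Of the 209 cilium genes, 93 had a lower response in PgrKO than in F/F at an adjusted p under 0.05 and 0 a higher one, where 3.91% of all genes were lower and 0.499% higher.

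**Figure D3:**
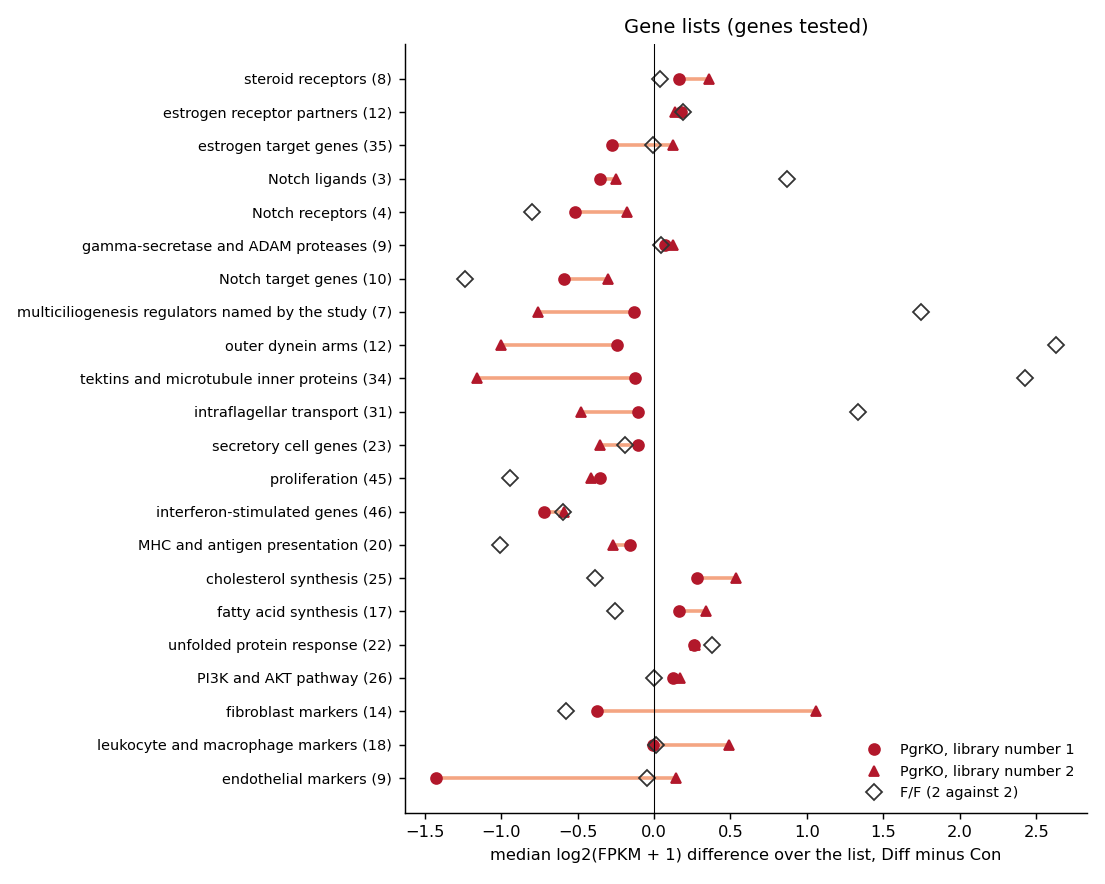
Median difference between Diff and Con over each gene list on log2(FPKM + 1), with the number of genes tested in brackets, for PgrKO library number 1 (circles), number 2 (triangles) and F/F (diamonds, 2 libraries against 2). Cilium lists lie above 0 in F/F and below 0 in both PgrKO numbers, and the fibroblast and endothelial lists have opposite signs in the PgrKO numbers.

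The genes called in F/F were then followed in PgrKO. Of the 1386 genes that rose beyond 2-fold in F/F, 161 (11.6%) were higher and 432 (31.2%) lower without overlap in PgrKO, beside 18.9% and 16.4% of all genes, and the median difference in PgrKO was -0.21 (-0.04 in number 1 and -0.36 in number 2). Of the 535 genes that fell in F/F, 22 (4.11%) were higher and 255 (47.7%) lower, with a median of -0.33 (-0.33 and -0.31). By at least 2-fold without overlap, 19 of the 1386 were higher and 38 lower in PgrKO. Of the 535, 1 was higher and 58 lower by this measure. Over all genes the shares were 0.702% higher and 1.55% lower. The response differed between genotypes at an adjusted p under 0.05 for 581 of the 1386 (41.9%) and 52 of the 535 (9.72%), beside 4.41% of all genes. Both sets were chosen by the F/F response, which is a term of the difference tested, so these shares are a description and not independent evidence. Over all genes and beyond 2-fold, 66 responses were higher and 610 lower in PgrKO than in F/F. Both counts were 0 when the library number entered the fit as a block within genotype, and 0 with a pseudocount of 0.1. These interaction calls were 0 when any 1 of the 8 PgrKO and F/F libraries was left out except PgrKO_Con library 1, without which they were 461, and 0 with voom, where 3107 genes had an unadjusted p under 0.05. Without both libraries of a PgrKO number they were also 0.

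**Figure D4:**
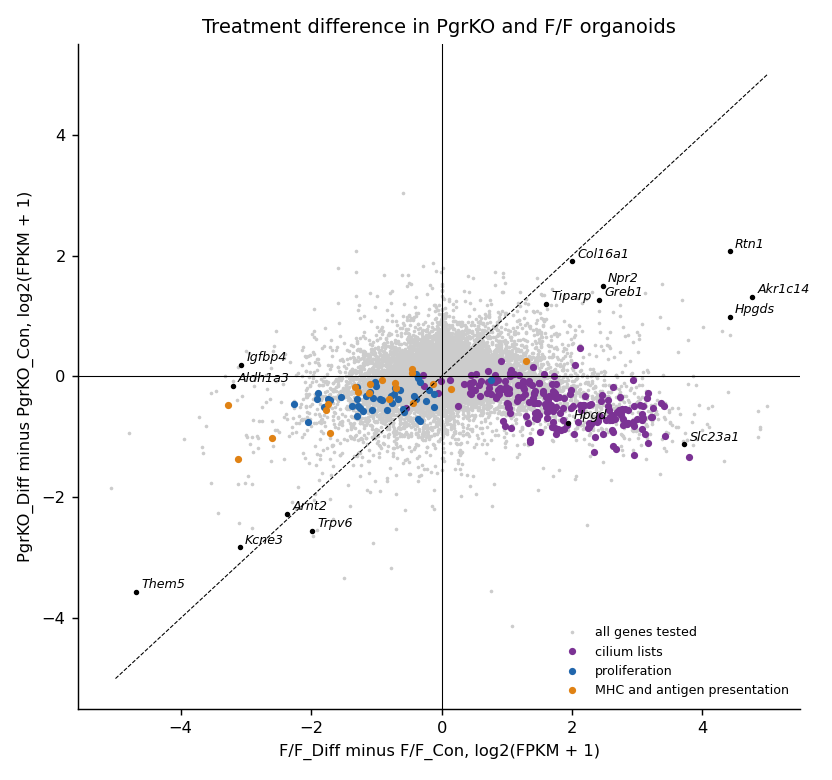
Each point is a gene, with its difference between Diff and Con on log2(FPKM + 1) in F/F (horizontal) and in PgrKO (vertical), and the dashed line marks equal responses. Cilium genes extend to the right and lie mostly below 0 in PgrKO, proliferation genes lie mostly below 0 in both, and Them5, Kcne3, Trpv6, Arnt2, Col16a1 and Tiparp lie near the line of equal responses.

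The higher genes that the 2 genotypes shared were led by Rtn1, Col16a1, Npr2, Snorc, Dcaf12l1, Akr1c14, Gm48874 and Mettl7a1, with PgrKO log2 fold changes from 2.07 (Rtn1) to 1.27 (Mettl7a1) and F/F values from 4.76 (Akr1c14) to 1.53 (Dcaf12l1). Rtn1 differed in size, rising in F/F from 0.168 and 0.362 FPKM to 18.5 and 36.1 FPKM, and its response was 2.35 lower in PgrKO (adjusted p = 0.0499 in limma). PgrKO_Con organoids held Rtn1 at 16.2 to 20.8 FPKM, close to the treated F/F level. The shared lower genes were led by Them5, Kcne3, 5330417C22Rik, Trpv6, Spp1, Arnt2, Krt17 and Slc10a2. Them5, an acyl-CoA thioesterase, was at 13.7 and 53.2 FPKM in PgrKO_Con and at 1.92 and 0.942 FPKM in PgrKO_Diff, and fell in F/F from 30.1 and 28.1 FPKM to 0.133 and 0.20 FPKM. Arnt2, a partner of bHLH-PAS transcription factors, was at 27.2 and 15.1 FPKM against 5.32 and 2.06 FPKM, with nearly equal log2 fold changes of -2.27 in PgrKO and -2.37 in F/F. Slc10a2, a bile acid transporter, had -2.08 and -2.29. For these 3 genes the responses did not pass the test of a difference (adjusted p = 0.473, 0.952 and 0.804), which does not show that they were equal.

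Among genes that rose in F/F, the smallest interaction p-values belonged to Gm43458, Plekhb1, Slc23a1, Bphl, Gm23299, Psmc3ip, Gm21190 and Wdr93. Gm43458 and Gm23299 were at or below 0.304 FPKM in all PgrKO libraries and passed the filter through other groups, so their calls restate the F/F rise. Slc23a1, a transporter of vitamin C, went in opposite directions: from 19.1 and 17.8 FPKM to 8.38 and 7.51 FPKM in PgrKO, and from 3.00 and 1.85 FPKM to 32.2 and 58.5 FPKM in F/F. Ly6c1, a surface protein, did likewise, from 24.4 and 12.8 FPKM to 3.48 and 1.58 FPKM in PgrKO and from 5.83 and 4.39 FPKM to 19.7 and 38.3 FPKM in F/F. Among genes that fell in F/F, they belonged to Aldh1a3, Snora69, Phox2a, Coch, Dram1, Ckap2, Ncapd2 and Adgrg7. Aldh1a3, which makes retinoic acid, fell in F/F from 17.0 and 13.9 FPKM to 0.563 and 1.03 FPKM, and was at 0.152 and 0.503 FPKM in PgrKO_Con and 0.0816 and 0.296 FPKM in PgrKO_Diff. Phox2a, Coch and Adgrg7 were likewise under 1 FPKM in all PgrKO libraries. In PgrKO these 4 genes did not reach the filter, which they passed through other groups, so their calls restate the F/F fall and do not describe a response in PgrKO. Ckap2, a mitotic spindle protein, was lower in both genotypes, from 8.28 and 8.09 FPKM to 5.06 and 4.72 FPKM in PgrKO and from 9.92 and 10.2 FPKM to 2.19 and 2.17 FPKM in F/F.

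Proliferation genes were lower with little spread. Of 45 tested, 44 had values below 0, where 7497 of all 15816 genes did. In both library numbers 41 were lower, beside 28.5% of all genes. Without overlap, 23 were lower and 0 higher, beside 16.4% and 18.9% of all genes. The median was -0.37, with -0.36 in number 1 and -0.41 in number 2. Top2a, the topoisomerase of dividing cells, was at 19.2 and 15.9 FPKM in PgrKO_Con and at 12.7 and 8.29 FPKM in PgrKO_Diff. Ccna2, cyclin A2, was at 9.0 and 8.56 FPKM against 6.55 and 4.72 FPKM. In F/F, 23 of the 45 fell and 1 rose by the test, beside 6.89% and 12.4% of all genes, with a median of -0.94. At an adjusted p under 0.05 in limma, 3 had a higher (that is, less negative) response in PgrKO, beside 0.499% of all genes.

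Interferon-stimulated genes, which cells switch on against viruses, were mostly lower. Of 46 tested of 47 listed, 34 were lower and 0 higher without overlap, beside 16.4% and 18.9% of all genes. Of these, 10 were lower by at least 2-fold, beside 1.55% of all genes. In both library numbers 38 of the 46 were lower, beside 28.5% of all genes. The median log2 fold change was -0.60, with -0.72 in number 1 and -0.59 in number 2. In F/F the median was also -0.60, and 15 fell and 2 rose by the test, beside 6.89% and 12.4% of all genes. Oas2, an enzyme that senses double-stranded RNA, was at 10.0 and 10.1 FPKM in PgrKO_Con and at 1.90 and 2.11 FPKM in PgrKO_Diff. The groups of Oas2 stood clear of each other, with a log2 difference of -1.88 ± 0.22 (SE) at an adjusted p of 0.366 in limma. Zbp1, a sensor of nucleic acids, was at 9.04 and 7.49 FPKM against 2.40 and 1.55 FPKM. Oas1g and Oas3, of the same family as Oas2, had log2 fold changes of -1.27 and -0.96. Reads of Oas1g may be shared with its near-identical paralogs. In F/F, the log2 values of Oas2 and Zbp1 fell by 1.14 and 1.26 (adjusted p = 0.020 and 0.016). The summed level of the list was 667 and 522 FPKM in PgrKO_Con and 541 and 365 FPKM in PgrKO_Diff, a smaller difference than that of the median gene.

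Factors activated by interferon bind a promoter sequence, the interferon-stimulated response element. Its core was searched as GAAANNGAA on both strands, where matches may overlap, in the 300 bases around the RefSeq start sites (250 before and 50 after, build GRCm38.p6). The motif was chosen with the values of the list known. It was found in 21 of 35 tested interferon genes with a promoter entry (60.0%), in 15 of the 25 that were lower without overlap (60.0%), and in 8.69% of tested genes with an entry (8.56% of all promoters). Stretches of 120 bases are shown for the lower genes with the smallest p-values and a match, leaving out near-identical copies, with the match in capitals. A match is a description of the letters and not evidence of binding. They lie at chr5:120887565-120887684 (Oas1g), chr5:120777668-120777787 (Oas3) and chr3:151749861-151749980 (Ifi44) on the minus strand and at chr19:34607741-34607860 (Ifit3b) on the plus strand, written 5′ to 3′ along the gene.
Oas1g: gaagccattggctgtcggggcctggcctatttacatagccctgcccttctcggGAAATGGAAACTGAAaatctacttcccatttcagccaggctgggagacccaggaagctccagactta
Oas3: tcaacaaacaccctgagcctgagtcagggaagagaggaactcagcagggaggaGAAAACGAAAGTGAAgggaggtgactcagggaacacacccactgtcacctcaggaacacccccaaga
Ifi44: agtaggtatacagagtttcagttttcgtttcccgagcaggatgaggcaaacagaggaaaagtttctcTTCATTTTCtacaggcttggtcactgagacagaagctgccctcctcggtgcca
Ifit3b: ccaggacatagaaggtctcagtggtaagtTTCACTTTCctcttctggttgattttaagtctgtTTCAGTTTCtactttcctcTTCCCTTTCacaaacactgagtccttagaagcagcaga

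Ifi44 and Ifit3b, which interferon induces, carried the core on the opposite strand, and Ifit3b had 3 matches in this stretch. The full palindromic estrogen response element was in 0 of the 94 tested hormone and Notch genes with an entry and in 0.070% of all promoters. The RBPJ core TGGGAA was in 25.5% of those 94 genes, in 27% of tested genes with an entry and in 25.6% of all promoters. It was in 45.7% of the tested interferon genes with an entry, and the interferon core was in 17% of the 94 hormone and Notch genes. No entry was found for Hes1, Hey1, Ccnd1, Oas2 or Zbp1.

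Antigen presentation genes were lower as well. Of 20 tested of 23 listed, 11 were lower and 1 higher without overlap, beside 16.4% and 18.9% of all genes, with a median of -0.23. Psmb8, a subunit of the immunoproteasome, was at 6.71 and 7.81 FPKM before and 3.25 and 3.36 FPKM after treatment. Psmb8 is also on the interferon list, so the counts of these lists are not separate. B2m, the light chain of MHC class I, was at 532 and 679 FPKM against 397 and 420 FPKM. The difference of B2m was -0.56 ± 0.20 in PgrKO, and in F/F it fell by 1.78 on the log2 scale (adjusted p = 0.010 in limma), without passing the test of a difference between responses (1.22, adjusted p = 0.071). In F/F 11 of the 20 genes fell and 1 rose by the test, beside 6.89% and 12.4% of all genes, with a median of -1.01. The antigen presentation genes H2-Q6 and H2-Q7 are near-identical copies, and their values of -1.38 and -1.02 are uncertain for that reason.

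**Figure D5:**
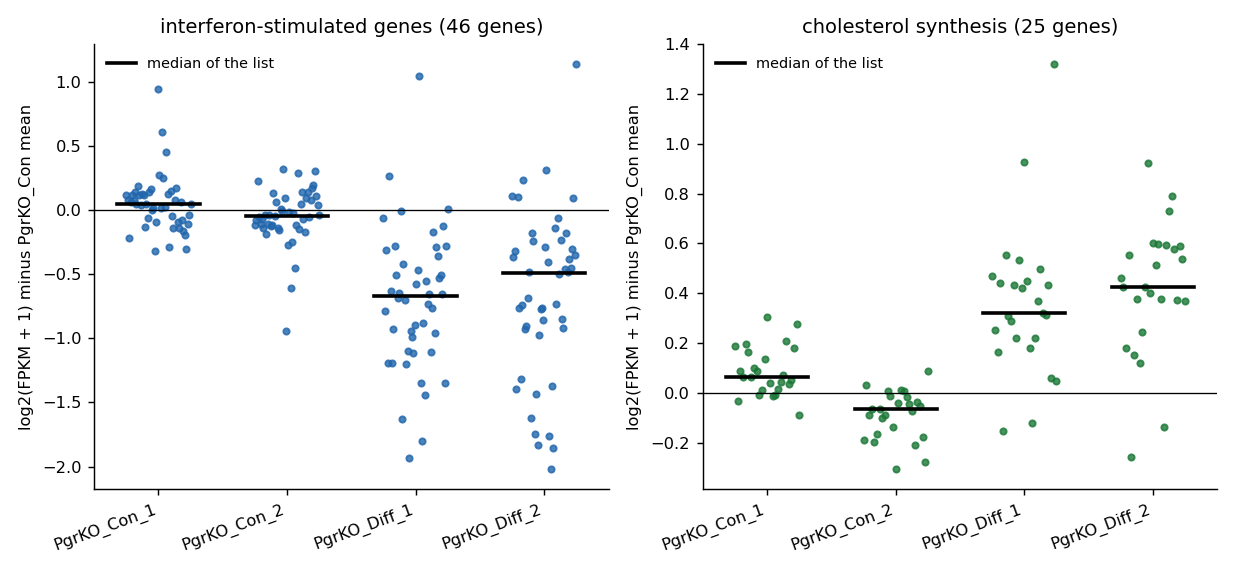
Level of each interferon-stimulated gene (left, 46 genes) and cholesterol synthesis gene (right, 25 genes) in the 4 PgrKO libraries, as log2(FPKM + 1) minus the gene's PgrKO_Con mean, with bars for the list's median. The interferon median lies below 0 and the cholesterol median above 0 in both PgrKO_Diff libraries.

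Cholesterol synthesis genes had the opposite sign. Of 25 tested, 24 had values above 0 and 21 were higher in both numbers, beside 32.2% of all genes higher in both. Without overlap, 19 were higher and 0 lower, beside 18.9% and 16.4% of all genes. The median was 0.39, with 0.28 in number 1 and 0.54 in number 2. Msmo1, a sterol oxidase, was at 34.7 and 32.7 FPKM in PgrKO_Con and at 46.4 and 48.6 FPKM in PgrKO_Diff. Lss, which forms the first sterol ring system, was at 11.6 and 11.4 FPKM against 17.0 and 22.6 FPKM. The differences of Msmo1 and Lss were 0.48 ± 0.12 and 0.73 ± 0.21 on the log2 scale (standard errors). In F/F, 5 of the 25 fell and 1 rose by the test, beside 6.89% and 12.4% of all genes, with a median of -0.38. Of 17 fatty acid synthesis genes, 8 were higher and 1 lower by the same measure, with a median of 0.27. Acss2, which makes acetyl-CoA from acetate, was at 1.40 and 1.34 FPKM against 3.41 and 2.73 FPKM and also rose in F/F (0.86, adjusted p = 0.023). Acly, which makes it from citrate, was at 82.5 and 73.1 FPKM against 87.4 and 99.7 FPKM and fell in F/F, a difference in response of 0.96 (adjusted p = 0.047).

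Of 22 genes of the unfolded protein response tested, 21 had values above 0, and 9 were higher and 0 lower without overlap, beside 18.9% and 16.4% of all genes, with a median of 0.26 in PgrKO and 0.38 in F/F. Herpud1, a membrane protein of endoplasmic reticulum degradation, was at 32.7 and 32.2 FPKM in PgrKO_Con and at 66.9 and 55.7 FPKM in PgrKO_Diff. Sel1l, of the same degradation complex, was at 21 and 20.1 FPKM against 33.5 and 29.8 FPKM. Both were clear of the control libraries, and Herpud1 also rose in F/F (1.44, adjusted p = 0.022 in limma). Of 26 PI3K and AKT pathway genes, which the study follows at the protein level, 13 were higher and 1 lower, beside the same shares, with a median of 0.15. Pik3cd, the p110δ catalytic subunit that is known best from leukocytes, was at 3.01 and 2.43 FPKM against 6.24 and 6.93 FPKM. Its log2 difference was 1.03 ± 0.15 (SE) at an adjusted p of 0.366 in limma, and it rose in F/F by 0.90 (adjusted p = 0.015). The part of leukocyte RNA in the Pik3cd difference was not tested. Of 35 genes of CDC42 and its effectors, 7 were higher and 4 lower without overlap, near the 18.9% and 16.4% of all genes, with a median of 0.05.

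Secretory cell genes were lower more often than higher. Of 23 tested of 31 listed, 10 were lower and 3 higher without overlap, beside 16.4% and 18.9% of all genes. By at least 2-fold, 4 of these were lower and 2 higher, beside 1.55% and 0.702% of all genes. The median was -0.28, with -0.11 in number 1 and -0.36 in number 2. The list summed to 13849 and 9880 FPKM in PgrKO_Con and to 12767 and 8448 FPKM in PgrKO_Diff. Wfdc2, a secreted protease inhibitor, was at 570 and 666 FPKM in PgrKO_Con and at 335 and 226 FPKM in PgrKO_Diff. Wnt7a, a WNT ligand of the female tract epithelium, was at 17.3 and 25.9 FPKM against 4.67 and 3.47 FPKM. The log2 difference of Wnt7a was -2.14 ± 0.41 (SE), at an adjusted p of 0.437 in limma. Both were lower in each number, and in F/F neither passed the test (-0.82 for Wfdc2 and -1.41 for Wnt7a). Of 14 keratinization genes tested, 4 were lower and 1 higher, and Tgm1, which cross-links the cell envelope, was at 4.76 and 8.96 FPKM against 0.576 and 0.864 FPKM. Of 20 epithelial identity genes, 7 were lower and 1 higher, with a median of -0.18. Cxcl17, from the chemokine list and made by mucosal epithelia, was at 249 and 293 FPKM against 102 and 72.6 FPKM.

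Most leukocyte markers differed by library number. None of the 18 leukocyte and macrophage markers separated Diff from Con, where 18.9% of all genes were higher and 16.4% lower without overlap. C1qa was at 3.85 and 5.80 FPKM in the number 1 libraries and at 77.2 and 108 FPKM in the number 2 libraries. Of 14 fibroblast markers 0 were higher and 2 lower without overlap, the lower count near the share of all genes. Their medians were -0.37 in number 1 and 1.06 in number 2. Of 9 endothelial markers 3 were lower and 0 higher, beside the same shares of all genes, with medians of -1.43 and 0.14. Cdh5, the cadherin of endothelial junctions, was at 26.1 and 18.9 FPKM in PgrKO_Con and at 9.08 and 9.62 FPKM in PgrKO_Diff, lower in both numbers, while Cldn5, of the same junctions, was at 4.86 and 4.23 FPKM against 0.133 and 6.33 FPKM. Of 3 smooth muscle markers tested 1 was lower and 0 higher, with medians of -0.34 in number 1 and 0.38 in number 2. Acta2, smooth muscle actin, was at 11.3 and 19.7 FPKM against 2.83 and 4.59 FPKM. Des was at 3.86 and 3.21 FPKM against 3.53 and 8.73 FPKM, and Smtn at 16.3 and 22.4 FPKM against 12.6 and 29.4 FPKM, both with overlap. The part of these cell types in the results above was not tested.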

How the data were processed

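RNA was sequenced from 10 organoid libraries. Per the labels and the study's methods, the authors aligned reads to mm10 and deposited 1 table of FPKM per gene; HISAT2 and edgeR are named in the submitters' processing notes, with versions not given in the sources used here. The table held 54152 rows, and no column of per-sample values was left unused (0). FPKM values matched whole multiples of a read for at least 99.99% of values (tolerance 0.01 read, exon lengths of 1 gene model per symbol). Genes whose mean reached 1 FPKM in any group were fitted on log2(FPKM + 1) with limma 3.58.1 (R 4.3.3), 6 groups in 1 fit, trended variance and Benjamini-Hochberg adjustment; a pseudocount of 1 understates changes of low genes. A call needs an adjusted p under 0.05, and for counts beyond 2-fold also a log2 difference beyond 1. Overlap compares the 2 Diff with the 2 Con values. Library size limits precision, and depth was 11744271 to 17330672 reads.

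Genes were named if they were among the 15 largest higher or lower values with an official symbol, at least 5 FPKM and no overlap, among up to 6 members of each hormone or Notch list or 4 of each other list by smallest p, or among the 8 leading genes of each comparison with F/F. Marker genes of other cell types could all be named. Igfbp4, Hes1, Esr2, Hes5, Ifi44 and Ifit3b, also list members, were chosen after their values were seen. The members and the 49 lists were chosen with earlier results of these data known. Results for some genes are not reported here. The fit was tested on simulated data. Alternatives covered scaling, filters, pseudocount, samples, the replicate block, left-out libraries and voom.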

Additional observations from a re-analysis of the deposited data

Results flagged for a closer look

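The response to treatment differed between PgrKO and F/F by the interaction term in limma for 66 genes with a higher and 610 genes with a lower response in PgrKO, beyond 2-fold. Among the named genes, the log2 difference in response (PgrKO minus F/F) was lower in PgrKO for Rtn1 (-2.35), Ly6c1 (-4.70), Hpgd (-2.72), Hpgds (-3.43), Vim (-3.17), Plekhb1 (-2.24), Slc23a1 (-4.84), Bphl (-2.24), Psmc3ip (-2.0), Wdr93 (-3.12), Dnah12 (-3.90), Enkur (-3.60), Ift74 (-2.30), B9d1 (-1.79) and Nek2 (-3.14). It was higher for Igfbp4 (3.27), Acly (0.96), Gpx2 (1.31), Aldh1a3 (3.05), Snora69 (3.07), Phox2a (2.83), Coch (2.75), Dram1 (2.25), Ckap2 (1.16), Ncapd2 (1.31) and Adgrg7 (2.71). Vim, an intermediate filament gene, was at 80.9 and 38.7 FPKM in PgrKO_Con and 50.8 and 50.3 FPKM in PgrKO_Diff, and rose in F/F from 4.88 and 7.0 FPKM to 46.9 and 63.6 FPKM. Snora69, a small nucleolar RNA, was at 0 and 0.538 FPKM against 1.44 and 1.95 FPKM in PgrKO, and fell in F/F from 2.98 and 2.75 FPKM to 0 in both libraries. Aldh1a3, Phox2a, Coch and Adgrg7 were under 1 FPKM in every PgrKO library and passed the filter through other groups, so their values restate the F/F fall. These calls rest on 2 libraries a group, and the causes were not tested. None of the calls remained with the library number as a block within genotype, or with a pseudocount of 0.1.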

How the results depend on the processing

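At an adjusted p under 0.05, 0 genes differed between PgrKO_Diff and PgrKO_Con under every alternative except 2. With no filter on low values there were 11, of which 1 was beyond 2-fold, and in the unmoderated linear model 2, of which 1 was beyond 2-fold. That gene was Gm25518 in both, at 0 in PgrKO_Con and 1.76 and 1.59 FPKM in PgrKO_Diff. The count was 0 in each fit that left out 1 library, and 0 with the replicate block. With no filter 31988 genes were tested. Beyond 2-fold, genes called in F/F (1921) were 1254 with no filter, 760 without moderation, 4594 at an adjusted p under 0.1 with no fold minimum, and 0 to 1879 with 1 library left out. Responses that differed between genotypes (676) were 39 with no filter, 11 without moderation, 0 with a pseudocount of 0.1, 0 with voom on recovered reads, 1746 at an adjusted p under 0.1 with no fold minimum, and 0 to 461 with 1 library or 1 PgrKO number left out. Genes higher without overlap by 2-fold (111) were 70 at a mean of at least 5 FPKM, 295 with a pseudocount of 0.1, and 111 to 546 with libraries left out. Genes lower (245) were 762 with a pseudocount of 0.1 and 245 to 705 with libraries left out; groups of 1 separate more easily, by construction. Within library number 2 alone 444 genes were higher and 705 lower, and within number 1 alone 243 and 426. Counting the median of each list or combined list once per alternative, 109 moved and 656 did not. The limit for a move was wider for lists whose library numbers differed more. The estrogen target median was -0.27 to 0.39 with libraries left out, and the interferon and cholesterol medians kept their sign. Fits with 1 library in a group assume that it varies like the other groups. Library size limits low genes.

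The labels give the libraries of a group numbers 1 and 2, without saying that equal numbers share a culture. The deviations between numbers in PgrKO_Con and PgrKO_Diff correlated at 0.53 across genes, and those in F/F at -0.05. With the replicate block within genotype, 0 genes were called in PgrKO (1540 at an unadjusted p under 0.05), 2026 in F/F and 0 for the difference in response (3921 at an unadjusted p under 0.05).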
